A study of Mus musculus with 24 samples.

Results

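The change in messages shared between SN-011-treated samples of 4 tissues of Trex1-/- mice (tongue, muscle, stomach and heart) was measured by RNA-seq over all 24 of the study's 24 samples. SN-011 is a small-molecule antagonist of STING. Each of the 4 tissues had 3 control samples and 3 SN-011 samples, and every sample was taken into a single model with a term for tissue and a term for treatment. All 8 groups carried the same deletion of Trex1, so that each value compares Trex1-/- tissue with Trex1-/- tissue and no wild-type sample enters it. By the sample labels, the SN-011 mice received 5 mg/kg on 3 days a week for 4 weeks and the controls were untreated, whereas the study's methods describe a daily course at another dose, vehicle for the controls and mice 1 month old at the start. The labels and the methods differ on the course given, and the samples are grouped here by tissue and treatment alone. Whole pieces of tissue were sequenced as poly(A) libraries, in which fewer cells of a type and less RNA per cell cannot be told apart.

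STING is the adaptor of the DNA-sensing pathway in which cGAS recognises DNA in the cytosol and makes the second messenger cGAMP. STING then recruits the kinase TBK1, which activates the transcription factor IRF3, and the resulting type I interferons signal through JAK kinases and STAT factors to switch on the interferon-stimulated genes (ISGs). Trex1 is a DNA exonuclease that removes the DNA that would otherwise engage cGAS, and its loss in mice is known for inflammation of the heart and other organs.

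Total counts were 14253416 to 18443329 per sample, at which 3 counts correspond to 0.163 to 0.210 CPM, the count of a gene scaled to its library, a floor that covers counting error only. The defining messages of each tissue were abundant in its own samples, including those of heart muscle in heart, gastric glands in stomach, skeletal muscle in muscle and squamous epithelium in tongue. No sample had a read on Trex1 (0 counts), yet Atrip lies across the same stretch and strand, and the genotype therefore cannot be read from these counts. Control replicate 1 of each tissue expressed Xist, at 3060 to 13811 counts, with no more than 3 counts of the Y-linked Ddx3y, and the remaining samples showed the reverse (Xist up to 20, Ddx3y 825 or above). In muscle, the second SN-011 library detected 11546 genes where all others detected 19798 or more. Controls 2 and 3 of heart, muscle and tongue carried gastric messages, as described further on. The Xist pattern thus went with 1 control number in every tissue and with no SN-011 sample, so it was not balanced between the treatments. Nothing in the labels ties a sample to an animal, and tissues with the same number may have come from one mouse. Same-numbered samples correlated across tissues more often than others, as given further on. The p-values measure the spread between these samples, not between mice.

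A shared change was called when the treatment term passed an adjusted p of 0.05 in edgeR's quasi-likelihood test over the 19731 genes tested. By this rule 1065 genes were lower with SN-011, 5.4% of those tested, while 568 genes stood higher, 2.88%. Median sizes on the log2 scale were −0.78 for the lower genes and 0.67 for the higher ones, beside −0.07 over all genes tested. At an unadjusted p under 0.05 the counts were 2943 lower and 1742 higher. With same-numbered samples averaged over the tissues, 6 genes were lower and 5 higher (adjusted p under 0.05 by limma), as given further on. Without muscle SN-011 replicate 2 the calls numbered 1630 lower and 1105 higher, and without control 1 in all 4 tissues the higher calls numbered 869. Leaving out SN-011 replicate 3 in all 4 tissues gave the fewest, 250 lower and 123 higher.

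Called genes mostly moved in one direction everywhere. Of the 1065 lower genes, 993 (93.2%) had a negative fold change in all 4 tissues, compared with 16.7% of all genes tested. Of the 568 higher genes, 512 (90.1%) had a positive fold change in all 4 tissues, compared with 9.26% of all genes tested. A gene with agreeing tissues is more readily called by a shared term, and these shares are given as a description. In 95 of the lower genes every SN-011 sample lay below every control of its tissue in all 4 tissues, a pattern met by 102 genes or 0.517% of all tested. In 37 of the higher genes every SN-011 sample lay above, a pattern met by 37 genes or 0.188%. Among the lower genes left after setting aside stomach-led messages, defined further on, the median log2 fold change was −0.46 in heart, −0.88 in stomach, −0.68 in muscle and −0.50 in tongue. The higher genes had medians of 0.51, 0.92, 0.66 and 0.50 in the same order.

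ISGs fell at several steps, with at least 2 genes lower in each of 10 lists. The lists of interferon biology, covering 184 tested genes from sensors to antigen presentation, held 92 genes that fell and 1 that rose, with a median log2 fold change of −0.59. Over all genes tested, 5.4% were lower and 2.88% higher. These lists and those below were chosen with earlier results of these data known. In 127 of the 184 the fold change was negative in all 4 tissues. The median stood at −0.46 in heart, −0.71 in stomach, −0.72 in muscle and −0.61 in tongue.

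Several of these genes hold letters that match the interferon-stimulated response element beside their start site, a sequence known from many interferon-stimulated promoters. The element's core was searched as GAAANNGAAA on both strands in RefSeq promoter windows of GRCm38.p6 that run from 250 bases before to 50 bases after each start. Windows were found for 13445 of the 19731 genes tested. The windows below are shown as examples of interferon genes that were called lower and held a match. Each gives 30 bases on the gene's own strand, 5′ to 3′, with the matched core in capitals, which reads as its reverse complement where the core is on the other strand.
Rsad2: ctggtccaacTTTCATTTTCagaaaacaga
Irgm1: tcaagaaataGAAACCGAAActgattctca
Cxcl10: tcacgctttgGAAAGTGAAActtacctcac
Isg15: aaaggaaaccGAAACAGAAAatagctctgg
Ifit3: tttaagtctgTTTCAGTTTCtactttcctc
Ifit1: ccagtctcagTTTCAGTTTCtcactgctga
Gbp3: acagtttcagTTTCTATTTCccagatccct

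The Rsad2 window lies at chr12:26456553-26456582 on the minus strand, that of Irgm1 at chr11:48871425-48871454 and that of Cxcl10 at chr5:92349083-92349112, both also minus. The Isg15 window lies at chr4:156200865-156200894 on the minus strand. Those of Ifit3 and Ifit1 lie at chr19:34583397-34583426 and chr19:34640794-34640823, and that of Gbp3 at chr3:142559995-142560024, all on the plus strand. The core was present in the windows of 17 of 27 antiviral effector genes, in 10 of 10 interferon-inducible GTPases and in 32 of 60 M7core genes that fell. It was present in 69 of 640 genes that fell and were not stomach-led (10.8%) and in 12 of 423 genes that rose (2.84%), beside 3.88% of all tested genes and 3.44% of all 32851 windows. M7core, the study's signature described further on, was chosen in part by promoter binding of the interferon regulatory factor IRF2. Matches in its genes were therefore favoured in advance. No core was found in the windows of Tnfsf10, Ifi47, Uba7, Mlkl, Cxcl9, Tap1, Psmb9, Oasl1, Ifi44, Irf7 or Cgas, the first 10 of which were also called lower. The gamma-activated site, searched as TTCCNGGAA, was in 1.09% of the genes that fell and were not stomach-led. It was in 1.42% of those that rose, beside 1.49% of all tested. In the interferon subsets it was in 4 of 10 interferon-inducible GTPases, 5 of 60 M7core genes that fell and 2 of 27 antiviral effectors. Matches are descriptions of the letters in these windows.

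The antiviral effectors form the final layer of the response. Of 36 tested, 21 fell and 0 rose, with a median log2 fold change of −0.74. Rsad2, which encodes viperin, an enzyme that blocks viral replication, lies at chr12:26442746-26456452. Its level in the heart was 214, 196 and 250.3 CPM in the controls and 133, 109 and 157 CPM with SN-011. In the stomach the controls stood at 84.9, 98.8 and 97.7 CPM and the SN-011 samples at 21.1, 25.3 and 33.3 CPM. In all 4 tissues the groups did not overlap, muscle and tongue included. Muscle controls had 91.4, 56.7 and 79.7 CPM against 39.6, 32.9 and 44.6 CPM, and tongue controls had 136, 153 and 143 CPM against 75.0, 63.3 and 85.1 CPM. The shared log2 fold change of Rsad2 was −1.11 ± 0.13 (SE, adjusted p = 7.52e-05), with −0.73 in heart and −1.82 in stomach at the ends of the range. Ifit3 also kept its groups apart in all 4 tissues and fell by 0.88 on the log2 scale (SE 0.12, adjusted p = 0.000233). Its heart mean was 621 ± 76.3 CPM in controls and 433 ± 97.2 CPM with SN-011 (SD, n = 3), the highest level of the 4 tissues. Ifit3b and Rtp4 fell by 0.88 and 0.70. Ifit3 and Ifit3b are close copies, between which reads may be shared.

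**Figure D1:**
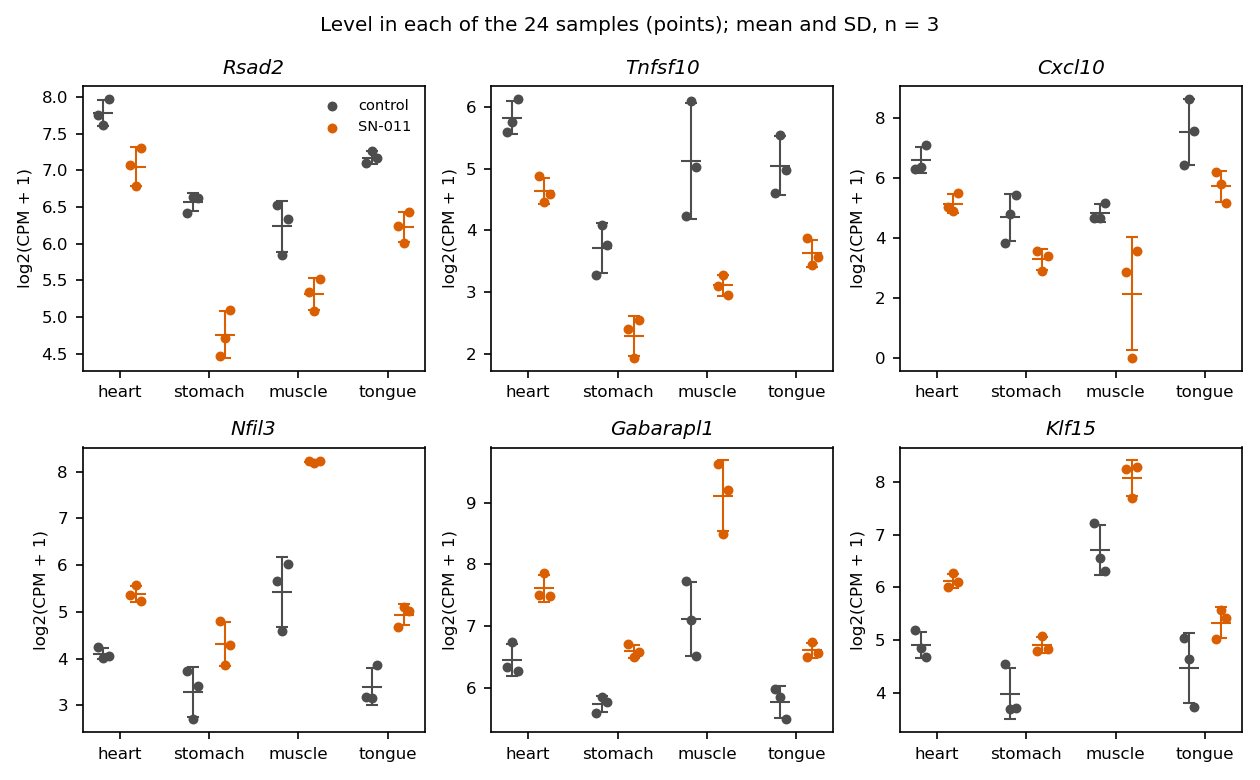
Levels of Rsad2, Tnfsf10, Cxcl10, Nfil3, Gabarapl1 and Klf15 as log2(CPM + 1) on the y axis in each of the 24 samples, by tissue on the x axis, with controls in grey and SN-011 in orange. Bars give the mean and SD of 3 samples on the log2 scale; in the upper row the SN-011 samples lie below every control of the tissue, and in the lower row they lie above, except in tongue for Klf15.

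Sensors of RNA fell, and the DNA sensor cGAS and its adaptor did not pass the test. Of 22 genes for DNA and RNA sensing, 6 fell, 1 rose and 15 did not pass, with a median of −0.39. Dhx58, Ddx58 and Ifih1, which encode the RIG-I-like receptors LGP2, RIG-I and MDA5, fell by 0.98, 0.90 and 1.11. Zbp1, a sensor of Z-form nucleic acids that can trigger cell death, fell by 1.02 (SE 0.16, adjusted p = 0.00039). Irf3, the factor downstream of STING, rose by 0.37 on the log2 scale and is named after its values were seen. Sting1, listed under its older symbol Tmem173, had a log2 fold change of −0.40 ± 0.32 (SE, adjusted p = 0.48). Over the alternatives its value ran from −0.80 to −0.15, and it passed under voom with quality weights alone (adjusted p = 0.046 by limma). Its groups overlapped in heart, stomach and muscle, where SN-011 replicate 2 was at 0, and in tongue the controls had 13.2, 14.8 and 10.3 CPM against 8.97, 8.12 and 8.87 CPM. Cgas had −0.33 ± 0.33 (adjusted p = 0.60), with overlapping groups in every tissue, means of 1.02 to 7.41 CPM and again a 0 in muscle SN-011 replicate 2.

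Few interferon genes themselves could be measured. Of 11 interferon ligands listed, Ifng alone had enough counts to be tested. Ifng, the type II interferon made by T and NK cells, fell by 1.55 on the log2 scale (SE 0.41, adjusted p = 0.022). In heart its controls had 2.01, 1.29 and 3.51 CPM and the SN-011 samples 0.180, 0.588 and 0.898 CPM, whereas in stomach and tongue the groups overlapped.

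Of the 17 genes in the list of receptors, kinases, STATs and interferon regulatory factors, which leaves Irf3 to the sensing list, 8 fell and 0 rose. Jak2 and Ifngr2, a kinase and a receptor chain of interferon gamma, fell by 0.45 and 0.51. Irf1 fell by 0.65, with a log2 fold change of −0.07 in stomach and of −0.94 to −0.76 in the other tissues. The type I receptor genes did not pass the test. Of 11 feedback inhibitors and nucleases, Isg15 and Samhd1 fell and 9 did not pass. Isg15, a ubiquitin-like protein, had heart controls at 267, 266 and 296 CPM and SN-011 samples at 190, 188 and 264 CPM. In tongue its controls ranged from 138 to 496 CPM and overlapped the SN-011 samples, which stood at 140 to 155 CPM. Its shared log2 fold change was −0.98 ± 0.19 (SE, adjusted p = 0.0037).

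Genes that attach ISG15 or ubiquitin fell in 9 of 14 cases, with a median of −0.86 and 13 of 14 negative in all 4 tissues. Uba7, the activating enzyme for ISG15, fell by 0.81 and its groups stayed apart in every tissue. Ube2l6, the conjugating enzyme, fell by 0.87, and Dtx3l and Rnf213, both ubiquitin ligases, fell by 0.96 and 1.11. Of the interferon-linked PARPs and Schlafens 8 of 12 fell, among them Parp9, Parp10, Parp12 and Parp14 at −0.93, −0.63, −0.88 and −0.95. Parp9 and Dtx3l overlap on opposite strands, and the strand setting of the counting is not given in the sources used here.

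The interferon-inducible GTPases, which attack membranes around intracellular pathogens, had the lowest median of the 10 lists at −1.04, with 12 of 18 lower and 17 negative in all 4 tissues. Iigp1 had muscle controls at 446, 552 and 499.8 CPM and SN-011 samples at 90.8, 61.4 and 133 CPM. Its shared log2 fold change was −1.59 ± 0.21 (SE, adjusted p = 0.000132), and its groups overlapped in stomach alone. Irgm1 had stomach controls at 175, 203 and 171 CPM and SN-011 samples at 42.1, 61.6 and 73.5 CPM. In heart the Irgm1 groups overlapped, at 628 to 811 CPM against 452 to 637 CPM, and its shared change was −1.07 ± 0.14. Gbp7 and Igtp fell by 1.05 and 1.18, with groups apart in all 4 tissues.

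Chemokines that fell included the 3 ligands of CXCR3, which draw activated T cells. Of 21 chemokines and receptors 7 fell and 0 rose, and 7 were negative in all 4 tissues. Ccl7, a monocyte attractant named after its values were seen, fell by 1.70 over the tissues but had a log2 fold change of 0.74 in stomach. Cxcl10 stood at 78.2, 83.1 and 137 CPM in heart controls and at 31.9, 29.1 and 44.6 CPM with SN-011. In tongue it stood at 86.4, 399 and 189 CPM in controls and at 73.3, 55.4 and 35.2 CPM with SN-011. The SN-011 samples were the lower in all 4 tissues, although tongue control 1 was close to SN-011 replicate 1. In muscle the Cxcl10 controls had 24.8, 24.3 and 35.4 CPM and the SN-011 samples 6.29, 0 and 10.8 CPM, the 0 being that of replicate 2. The shared change of Cxcl10 was −1.85 ± 0.33 (SE, adjusted p = 0.00178). Cxcl11 fell by 2.38 (SE 0.35) and Cxcl9 by 1.46 (SE 0.22), and Cxcl16, a chemokine for CXCR6, fell by 0.58. Cxcl10 and Cxcl11 overlap Art3 on the other strand.

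Antigen presentation fell more by count than by size. Of 23 genes of MHC class I presentation 17 fell and 0 rose, 20 were negative in all 4 tissues, and the median was −0.49. Tap1, a subunit of the peptide transporter, had stomach controls at 197, 245 and 189 CPM and SN-011 samples at 94.3, 102 and 129 CPM. It fell by 0.67 with groups apart in every tissue, including tongue, where its change was −0.33. Psmb9, an immunoproteasome subunit that overlaps Tap1 on the other strand, fell by 0.71, Tapbpl by 0.70 and H2-T23 by 0.50. MHC class II presentation had 2 of 10 genes lower, H2-DMb1 and H2-Ab1, and 9 negative in all 4 tissues.

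In the list for necroptosis and pyroptosis 3 of 13 genes fell and 1 rose, beside 5.4% lower and 2.88% higher over all genes tested. Tnfsf10, which encodes the death ligand TRAIL, had heart controls at 47.4, 53.1 and 68.9 CPM and SN-011 samples at between 20.9 and 28.3 CPM. In muscle the controls stood at 17.8, 67.7 and 31.6 CPM and the SN-011 samples at 7.57, 8.73 and 6.69 CPM. The groups lay apart in all 4 tissues, and the shared change was −1.68 ± 0.20 (SE, adjusted p = 7.52e-05). Mlkl, the executor of necroptosis, fell by 0.94 (SE 0.15, adjusted p = 0.00082), also with groups apart in every tissue. Casp8 fell by 0.54, and Fas, a death receptor, rose by 0.55. The call of Fas was lost in 22 of 46 alternatives and that of Casp8 in 8.

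Among the 12 genes with the lowest p that fell in all 4 tissues, 8 belong to the ISGs described above or are related to them. These are Tnfsf10, Rsad2, Ifi47, Dhx58, Iigp1, Parp9, Irgm1 and Uba7. The others were Lcp1, an actin-bundling protein of leukocytes, Itgb6, an epithelial integrin chain, and Basp1 and Marcks, which bind the plasma membrane. Itgb6 fell by 1.64 (SE 0.22), with stomach controls at 34.6, 40.4 and 35.5 CPM and SN-011 samples at 6.56, 23.7 and 16.2 CPM. Lcp1 and Marcks fell by 0.88 and 0.70 with groups apart in all 4 tissues, and Basp1 fell by 1.29 with an overlap in muscle.

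**Figure D2:**
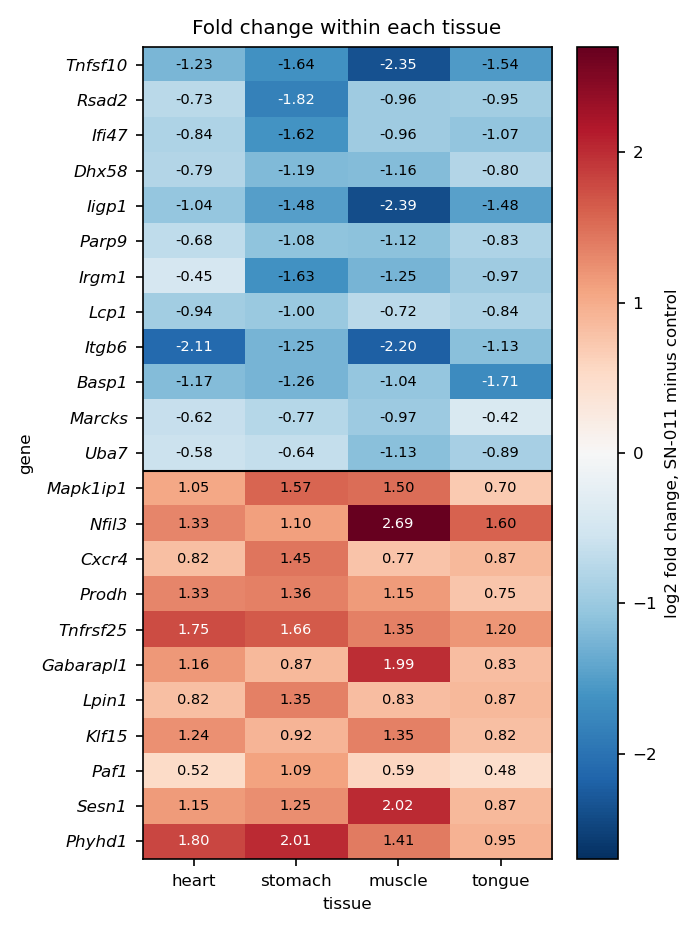
Log2 fold changes, SN-011 minus control, within each tissue (columns) for the 12 genes with the lowest p that fell and 11 of the 12 that rose in all 4 tissues (rows, parted by a line), each cell carrying its value. Every cell of a gene has one sign, and the sizes differ, as for Nfil3 with 1.10 in stomach and 2.69 in muscle.

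The study's M7core signature is a set of 159 genes meant as a readout of cGAS-STING. It was derived from stimulated cultured cells, with induction in macrophages and hearts of Trex1-/- mice and transcription factor binding data also used in the choice, so that heart of this model is not independent of it. All 159 were tested, of which 74 fell and 3 rose, with a median of −0.53, and 102 were negative in all 4 tissues. Over all genes tested, 5.4% were lower and 2.88% higher. Of the 74, 73 were negative in all 4 tissues and 23 had groups apart in each of them. The 41 members that also belong to the interferon modules M1.2, M3.4 and M5.12 had 31 lower, 0 higher and a median of −0.75. The 118 members outside these modules had 43 lower, 3 higher and a median of −0.42. Examples of the latter are Dhx58, Iigp1, Irgm1, Uba7, Gbp7 and Mlkl, given above. The 3 that rose were Tcp11l2 by 0.91, Tmem140 by 0.71 and Calcoco1, an autophagy receptor, by 0.60, all named after their values were seen. The study's list overlaps the interferon lists used here and is no separate evidence of them.

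**Figure D3:**
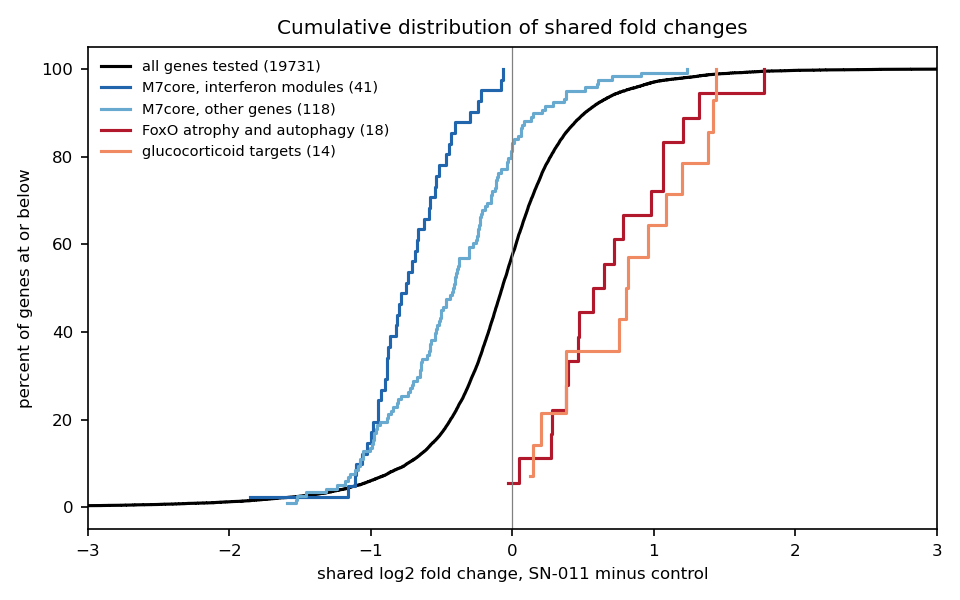
Cumulative percent of genes (y axis) at or below each shared log2 fold change, SN-011 minus control (x axis, cut at −3 and 3), for all genes tested, M7core inside and outside the interferon modules, and the FoxO and glucocorticoid lists. Both M7core curves lie to the left of all genes, with medians of −0.75 and −0.42, and the FoxO and glucocorticoid curves lie to the right, with medians of 0.61 and 0.81.

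The genes that rose were of other kinds. Of 18 genes of atrophy and autophagy that FoxO factors are known to regulate, 11 rose and 0 fell, with a median of 0.61. The shares over all genes tested were 2.88% higher and 5.4% lower. This list too was chosen with earlier results of these data known. Gabarapl1, an autophagosome protein, had heart controls between 76.8 and 106 CPM and SN-011 samples between 178 and 232 CPM. In muscle its controls had 211, 136 and 90.9 CPM and the SN-011 samples 791, 360.4 and 587 CPM. The groups were apart in every tissue, and Gabarapl1 rose by 1.21 (SE 0.16, adjusted p = 0.000148). Fbxo32, the muscle ubiquitin ligase atrogin-1, rose from a mean of 1505 ± 557 to 3531 ± 745 CPM in muscle (SD, n = 3) and by 1.06 over the 4 tissues. Sesn1, an inhibitor of mTORC1, rose by 1.32 and Bnip3, a mitophagy receptor, by 1.07. Trim63, the ligase MuRF1, rose by 1.78 and is named after its values were seen. The FoxO motif, searched as GTAAACA on both strands, was in the promoter windows of 3 of the 14 genes of this list that had one, in 5.2% of all genes that rose and in 3.31% of all tested, beside 3.65% of all windows.

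Glucocorticoid-induced genes rose in 6 of 14 cases and fell in 0, with a median of 0.81, beside 2.88% higher over all genes tested. Tsc22d3, which encodes GILZ, rose by nearly the same amount in each tissue, at 1.22 in heart, 1.11 in stomach, 1.25 in muscle and 1.23 in tongue, with groups apart in all of them. Klf15 rose by 1.08 (SE 0.15) and Ddit4, an inhibitor of mTORC1, by 1.42 (SE 0.36). Fkbp5, a co-chaperone of the glucocorticoid receptor, rose by 1.44 (SE 0.27, adjusted p = 0.00237). Its heart controls had 98.6, 32.6 and 30.2 CPM and the SN-011 samples 137, 165 and 187 CPM, so that control 1 was the highest of the controls. Control 1 was also the highest Fkbp5 control in the other 3 tissues, and without control 1 in all 4 tissues 11 of the 14 genes rose.

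Of 20 genes for fatty acid oxidation under PPAR factors 5 rose and 0 fell, beside 2.88% higher over all genes tested. Pdk4, a kinase that restrains glucose oxidation, had stomach controls at 36.8, 15.3 and 14.3 CPM and SN-011 samples at 99.5, 117 and 107 CPM. It rose by 1.32 (SE 0.28, adjusted p = 0.00533). Angptl4 rose by 1.31, Ucp3 by 1.00 and the fatty acid transporter Cd36 by 0.52. The list's median was 0.27, with 0.42 in heart, −0.16 in stomach, 0.36 in muscle and 0.36 in tongue. Of the 20 genes, 7 were positive in all 4 tissues and 15 were not called.

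Clock genes moved in both directions, with 5 of 18 higher and 4 lower, beside 2.88% and 5.4% of all genes tested. Nfil3, a repressor of the clock's output genes, stood at 49.6, 23.1 and 64.2 CPM in muscle controls and at 301, 289 and 297 CPM with SN-011. In heart it stood at 15.2 to 18.1 CPM against 36.3 to 46.4 CPM. Groups were apart in all 4 tissues and Nfil3 rose by 1.68 (SE 0.21, adjusted p = 8.13e-05). Per2, a core repressor of the clock, rose by 1.53 (SE 0.34). Nr1d1, which encodes the repressor REV-ERB alpha, fell by 1.58 (SE 0.27, adjusted p = 0.00143), from controls at 115, 79.2 and 46.6 CPM to 17.2, 16.9 and 12.6 CPM in tongue. Nr1d1 overlaps Thra on the other strand. The labels give no hour of collection, and its part in these changes was not tested.

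The other genes with the lowest p that rose were Mapk1ip1, Cxcr4, Prodh, Tnfrsf25, Lpin1, Paf1 and Phyhd1. Mapk1ip1 rose by 1.204 (SE 0.14, adjusted p = 7.52e-05), with stomach controls at 14.3, 16.7 and 15.5 CPM and SN-011 samples at 53.4, 37.1 and 47.4 CPM, and its groups overlapped in tongue alone. Cxcr4, the receptor of CXCL12, rose by 0.98 and Tnfrsf25, a death-domain receptor of T cells, by 1.49, both with groups apart in all 4 tissues. Prodh, which degrades proline, and Lpin1, a phosphatidate phosphatase, rose by 1.15 and 0.96. Paf1 rose by 0.67 with groups apart everywhere.

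Among the 5 largest rises, Sez6l rose by 3.11 (SE 0.75), Tat, a tyrosine-degrading enzyme, by 2.55 (SE 0.72), Greb1 by 2.51 (SE 0.50), Doc2b by 2.33 (SE 0.45) and Fam107a by 2.04 (SE 0.47). Tat in tongue rested on 1 sample, with 0.427, 0.0554 and 1.48 CPM in controls and 0.204, 9.33 and 0.261 CPM with SN-011, and it lost its call in 6 of the refits that left samples out. Fam107a reached means of 48.8 CPM in heart and 29.8 CPM in muscle with SN-011. Sez6l, Greb1 and Tat had group means under 8 CPM in every tissue. Doc2b in muscle went from 11.1, 0.656 and 0.848 CPM to 63.2, 29.6 and 49.9 CPM, where control 1 was again the highest control.

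Some genes of cholesterol synthesis and of cell division fell, in lists to be set beside 5.4% lower and 2.88% higher over all genes tested. Of 17 genes of the cholesterol list 9 fell and 0 rose, with a median of −0.67. Sqle and Msmo1, both enzymes of sterol synthesis, fell by 1.31 and 1.19. Sqle in heart stood at 5.70, 6.39 and 6.34 CPM in controls and at 2.16, 3.82 and 2.81 CPM with SN-011, whereas its groups overlapped in muscle and tongue. Of 19 cell cycle genes 6 fell and 0 rose, among them Ccnb1 by 1.14, Ccnb2 by 1.04, Cdk1 by 1.01 and Birc5 by 0.97. The other 13 did not pass, 8 of the 19 were negative in all 4 tissues, and the median was 0.13 in tongue against −0.93 to −0.74 elsewhere. Both lists lost all called genes in at least 1 refit that left samples out, at 0 to 11 and 0 to 8 genes.

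**Figure D4:**
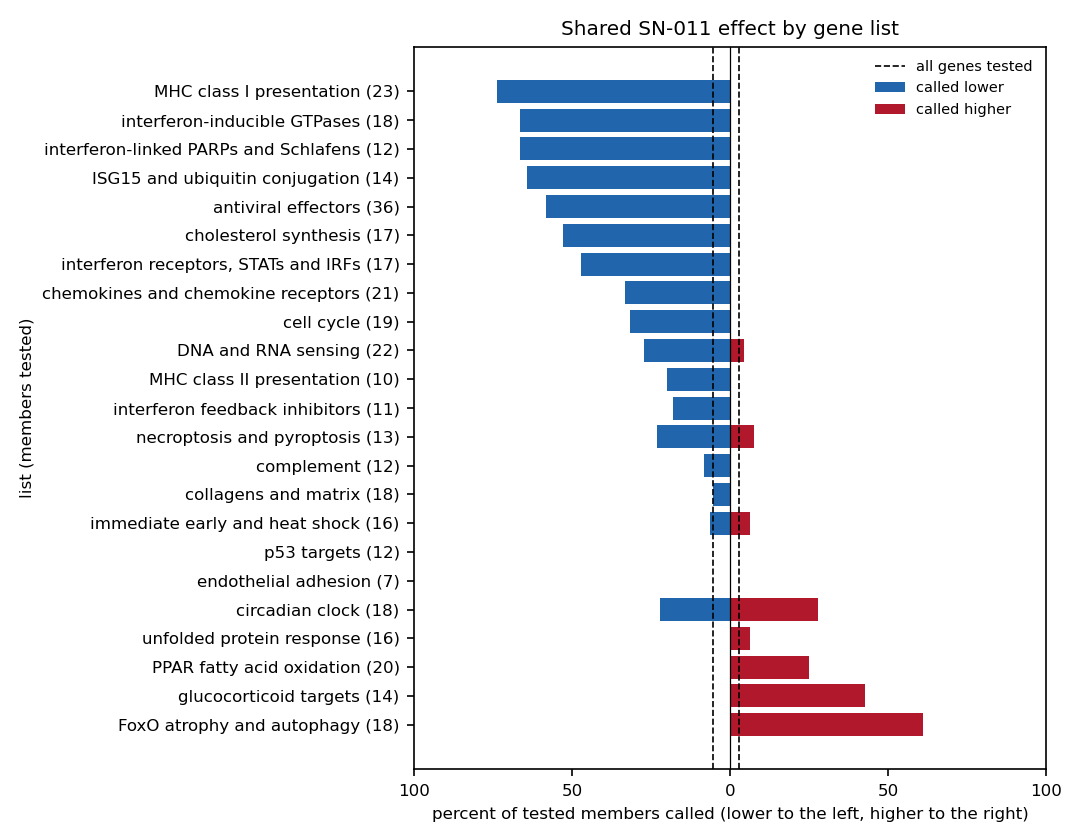
Percent of the tested members of each gene list (rows, members tested in brackets) that were called lower (blue, to the left) or higher (red, to the right) in the shared fit, with dashed lines at 5.4% lower and 2.88% higher for all genes tested. Among the lists drawn, which leave out cell and tissue markers, M7core and lists with fewer than 5 genes tested, MHC class I presentation has the largest share of lower genes, with 17 of 23, and the FoxO list the largest share of higher genes, with 11 of 18.

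Lists near the background were the unfolded protein response, with 0 lower and 1 higher of 16, p53 targets with 0 and 0 of 12, complement with 1 lower of 12, and collagens and matrix with 1 lower of 18. Endothelial adhesion had 0 called of 7. Immediate early and heat shock genes had Egr1 lower by 1.23 and Hspa1b higher by 1.25 among 16.

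Markers of immune cells were set beside the ISGs, and their part in the falls was not tested. Over all genes tested, 5.4% were lower and 2.88% higher. Of 17 T and NK cell markers Gzmb alone fell, a share close to that of all genes. The summed level of the 17 overlapped between groups in every tissue. In heart it was 214 to 400.0 CPM in controls and 191 to 289 CPM with SN-011. Of 16 macrophage markers Aif1 and Ms4a7 fell, and the sums overlapped in every tissue, at 2260 to 2940 against 2123 to 2904 CPM in heart. In stomach the macrophage sums were 542 to 814 against 431 to 1210.0 CPM. Of 7 dendritic cell markers Xcr1 and Itgax fell, again with overlapping sums. B and plasma cell markers had 3 of 12 lower, and their sum was lower in stomach, from 4186 to 7886 down to 2055 to 3367 CPM. Mast cell markers had 2 of 7 lower, Mcpt1 and Mcpt2, with lower sums in heart, stomach and tongue. Of these lists 3 of the 7 mast cell genes and 3 of the 12 B and plasma cell genes are stomach-led, as defined further on. Neutrophil markers had 0 of 6 called, and their sum was higher in stomach, at 24.1 to 37.8 against 12.1 to 17.3 CPM. Kdr was the 1 endothelial gene of 8 that fell, Fabp4 the 1 adipocyte gene of 7 that rose, and 2 of 5 erythrocyte genes, Hbb-bs and Hba-a1, rose. Kdr and Fabp4 stood beside sums that moved by tissue. The endothelial sum was lower in muscle, at 312 to 438 against 499 to 619.6 CPM, and higher in stomach, at 100.1 to 141 against 60.4 to 96.4 CPM. The adipocyte sum was higher in heart, at 972 to 1085 against 607 to 755 CPM.

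Markers of the tissues themselves had few calls, with 1 of 8 higher for heart muscle, 0 of 8 for skeletal muscle, 0 of 6 for smooth muscle, 1 of 9 higher for squamous epithelium and 0 of 9 mitochondrial messages, but several of their sums lay apart. Smooth muscle sums were higher with SN-011 in heart (3612 to 4065 against 2449 to 3133 CPM), muscle (7955 to 8110.0 against 6376 to 6862 CPM) and tongue (2265 to 2670.0 against 1597 to 2205 CPM). The skeletal muscle sum was higher in muscle, at 272500 to 293000 against 222800 to 252000 CPM. Mitochondrial messages were higher in stomach (57280 to 97820 against 27840 to 48850 CPM) and in muscle (127100 to 140100 against 102800 to 120400 CPM). In stomach the squamous sum was higher as well, at 483 to 1400.0 against 103 to 235 CPM. Muscle sums in stomach overlapped through control 1. Skeletal muscle had 309, 6.11 and 8.4 CPM in controls 1, 2 and 3 and 105 to 193 CPM with SN-011. Smooth muscle had 8116, 1411 and 2592 CPM in these controls and 5580 to 10800 CPM with SN-011. The part of these shifts in the shared changes was not tested.

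Stomach messages were present in some libraries of the other tissues, and their part in the genes called lower was not tested. The 9 gastric gland markers were all called lower, by medians of −4.57 in heart, −4.23 in muscle and −6.16 in tongue, and by −1.0 in stomach, where the sums of the groups overlapped. Their summed level in heart was 23.6, 2662 and 278 CPM in controls 1, 2 and 3 and 5.93 to 45.4 CPM with SN-011. In tongue it was 44.3, 2742 and 2175 CPM in controls and 18.6, 12.8 and 39.5 CPM with SN-011. Controls 2 and 3 of heart, muscle and tongue thus held 0.408% to 4.02% of the stomach mean, against 0.0087% to 0.106% in the other 12 samples of these tissues. Gkn1 and Atp4b, a mucosal protein and a proton pump subunit of the stomach, had shared fold changes of −4.27 and −4.60. The 5 largest falls were Sprr2a2, Pga5, Atp4b, Atp4a and Gkn2, all stomach-led.

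**Figure D5:**
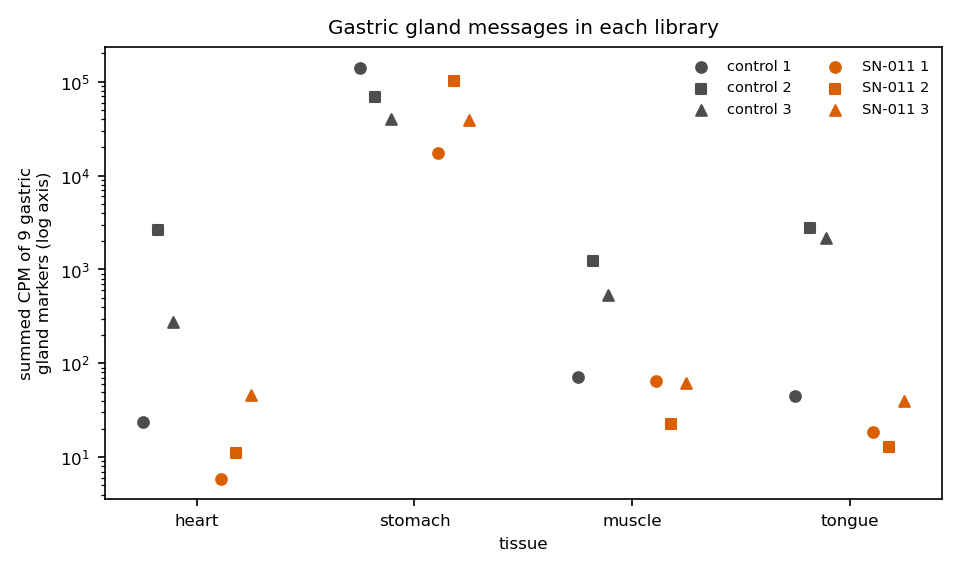
Summed CPM of the 9 gastric gland markers (y axis, log scale) in each library by tissue (x axis), with controls in grey, SN-011 in orange and the replicate number as the marker shape. In heart, muscle and tongue, controls 2 and 3 stand at 278 CPM or more and every other library at 72.0 CPM or less.

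Stomach-led genes were then set apart, a step chosen after seeing the data. They were defined as those whose mean over the stomach samples was at least 20 times their mean over the 9 SN-011 samples of the other tissues. Since only SN-011 samples enter the second mean, a gene that is lower with SN-011 outside the stomach meets this definition more readily, and genes less than 20 times higher in stomach are not covered by it. Of 769 such genes 204 fell and 2 rose. Without them, 861 genes were lower and 566 higher. None of the 184 interferon genes and none of the 159 M7core genes was stomach-led, so that their counts stayed as given.

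When the fold change was allowed to differ between tissues, 458 genes (2.32% of those tested) did so at an adjusted p under 0.05 in edgeR's test of the interaction. Of these, 11 were also among the 1065 lower genes and 19 among the 568 higher genes. In the interferon lists 4 of 184 genes differed, and in M7core 6 of 159. None of the 24 genes with the lowest p did, Rsad2 coming closest at an adjusted p of 0.096. An interaction that misses the threshold does not show that the tissues responded alike.

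The counts above treat the 24 samples as separate. To allow for tissues of 1 mouse, the log2 levels of same-numbered samples of a treatment were averaged over the 4 tissues, which left 3 control and 3 SN-011 values for each gene. By limma on these means 11 genes (0.0557%) passed an adjusted p of 0.05, of which 6 were lower and 5 higher. Among those lower were Rsad2 and Irgm1 at an adjusted p of 0.047 each, and among those higher were Nfil3, Mapk1ip1 and Gabarapl1, also at 0.047. The 6 means of Rsad2 were 6.94, 6.83 and 7.01 in controls and 5.75, 5.62 and 6.06 with SN-011, in log2 CPM. Those of Nfil3 were 4.13, 3.49 and 4.26 against 5.74, 5.64 and 5.65. At an adjusted p under 0.1 the limma counts were 631 lower and 325 higher. At an unadjusted p under 0.05 they were 2685 and 1479.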

How the data were processed

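RNA-seq of heart, stomach, muscle and tongue was processed, with 3 samples in each of 8 groups taken from the sample titles. The authors deposited raw counts of reads per gene without normalization for 54532 genes. The labels name HISAT2, HTSeq and mm10, whereas the study's methods name another counter, and describe strand-specific library preparation, but the strand setting of the counting is not given in the sources used here. Gene symbols came from GENCODE M21 (54495 identifiers matched). Genes were kept by filterByExpr over the 8 groups (minimum count 10, total 15) and scaled by TMM, and tissue plus treatment was fitted with the quasi-likelihood test of edgeR 4.0.16 (R 4.3.3), with Benjamini-Hochberg adjustment. Fold changes per tissue and the interaction came from a fit with 8 groups. DESeq2 1.42.0 and limma 3.58.1 were used for alternatives. On simulated counts of this design, the shared fit called 68.8% of 80 genes with a log2 change of 1, 10% of 80 with 0.5 and 0.0263% of 19029 unchanged genes among 19229. The simulated samples were drawn independently, so these rates do not cover tissues that share a mouse. Changes were planted only in genes with at least 10 expected counts in every tissue.

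The genes named were the 12 lowest p in each direction among protein-coding genes with 1 sign in all 4 tissues and at least 1 CPM, the 5 largest changes in each direction, Cxcl10, Mlkl, Zbp1, Isg15, Ifit3, Sting1 and Cgas, and up to 4 members of each of 39 lists. The genes and lists were chosen with earlier results of these data known. Multigene families (Ifit, Gbp, Tgtp, H2, Sprr2a, Mcpt and the globins) may share reads between copies. All samples entered the fits. Some genes that this rule names are not reported here.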

Additional observations from a re-analysis of the deposited data

Results flagged for a closer look

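The response to SN-011 differed between tissues for 458 genes at an adjusted p under 0.05, by edgeR's test of the treatment-by-tissue interaction, which is what marked this result for a closer look. Cdkal1 had a log2 fold change of 1.90 in muscle and of −0.66 to −0.28 in the other tissues (adjusted p = 0.00178). Col7a1, a collagen of squamous basement membrane, had 2.92 in stomach and −0.17 to 0.38 elsewhere (adjusted p = 0.00178), and Trp63, a factor of squamous epithelium, had 2.18 in stomach and −0.90 to 0.10 elsewhere (adjusted p = 0.00465). The 9 squamous epithelium markers summed to 483 to 1400.0 CPM in stomach with SN-011 and 103 to 235 CPM in its controls. These 3 genes were named after their values were seen. The count was 1 without the stomach samples and 1051 without muscle SN-011 replicate 2.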

How the results depend on the processing

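The counts are given as lower, higher, 1 direction in all 4 tissues, M7core lower and differing between tissues, and were 1065, 568, 1505, 74 and 458 as reported. Leaving out 1 sample at a time gave 800 to 1630, 420 to 1105, 1156 to 2410 and 94 to 1051 for the first 3 and the last. With 1 replicate number of a treatment left out of all 4 tissues as well (30 refits), they ran from 250 to 1630, 123 to 1105, 364 to 2410, 48 to 84 and 0 to 1236. The 0 (edgeR) was found without control 2 in all 4 tissues, with 2168 genes at an unadjusted p under 0.05, and without SN-011 replicate 1 in all 4 tissues, with 1761. Leaving out control 1 throughout gave 869 higher, control 2 308, 127 and 424 with 1 direction, control 3 402, 183, 561 and 238 differing, and SN-011 replicate 1 378, 221 and 584. The highest of the first 4 came without muscle SN-011 replicate 2, and the lowest of the first 3 without SN-011 replicate 3 in all 4 tissues.

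The likelihood ratio test gave 1670 lower, 919 higher and 2137 differing. DESeq2 gave 2025, 1058, 2630 with 1 direction and 2262 differing, and voom with quality weights 2282, 2332 and 2847 with 1 direction. A mouse block (voom) gave 904 higher and 937 differing. Its estimated correlation in the shared fit was −0.00859, so that it made almost no allowance for shared mice. Mouse means gave 6 lower, 5 higher, 11 with 1 direction and 2 in M7core. Library size alone gave 691 differing, and at least 10 counts in every sample 949. Without heart the counts were 524, 181, 697 and 93 differing, without tongue 480, 231, 694 and 298 differing, without stomach 1 differing and without muscle 260. The causes were not tested.

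With the replicate block 377 genes were lower and 261 higher, 626 had 1 direction and 55 M7core genes were lower, while 1 gene each stayed lower in the cholesterol and cell cycle lists. The numbers gave no sign of pairing control with SN-011 samples. Deviations of same-numbered samples of the 2 treatments correlated at −0.47 to 0.29 and over 0.1 in 2 of 12 pairs. With 3 samples in a group, this check cannot show that no pairing exists, and the labels give none. Across tissues, same-numbered samples correlated over 0.1 in 22 of 36 pairs, against 8 of 72 for other numbers.

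Of 217 genes followed, 0 changed sign. Most were followed because they were called in these same data, and the alternatives reuse most of the samples. A stable sign was therefore favoured in advance. The 24 genes with the lowest p lost a call under mouse means alone, where 6 kept it. Of 214 called genes among the 217, 61 lost the call in at least 10 alternatives. Of those named in the text these were Fabp4 (30), Hspa1b (26), Calcoco1 (26), Hba-a1 (25), Kdr (22), Fas (22), Hbb-bs (21), Samhd1 (20), Ccl7 (19), Cd36 (14), H2-Ab1 (14), Irf7 (14), Gzmb (12), Tat (12), Irf3 (11), Irf1 (10) and Itgax (10).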

Other observations

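The largest shared change outside the rule for named genes was that of Gm7993, a processed pseudogene at chr5:95974240-95975623, which was named after its values were seen. Its counts in muscle were 45.8, 60.2 and 77.6 CPM in controls and 3.52, 0.448 and 2.14 CPM with SN-011, and in heart 16.7, 11.1 and 22.5 CPM against 0.180, 0.118 and 0.112 CPM. All groups lay apart, the shared log2 fold change was −6.56 ± 0.48 (SE, adjusted p = 2.57e-08 by edgeR), and it passed with the 6 means as well (adjusted p = 0.0062 by limma). Odc1, the gene of ornithine decarboxylase, had 0.47 ± 0.20 (adjusted p = 0.14), and its groups overlapped in heart, stomach and tongue.

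Of 117 immunoglobulin V segments tested, 19 were called, all lower (5.4% of all genes were lower). B and plasma cell markers summed to 4186 to 7886 CPM in stomach controls and to at most 1664 CPM in controls of the other tissues, and the part of stomach messages in controls 2 and 3 was not tested. The 5 erythrocyte genes were positive in all 4 tissues with a median of 1.204, and Hbb-bs in tongue had 361, 65.5 and 79.6 CPM in controls and 1070.0, 172 and 253 CPM with SN-011, so that replicate 1 was the highest of both groups. Without control 1 in all 4 tissues all 5 were called higher.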
